A study of Homo sapiens with 12 samples.

Results

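HERV9 internal parts and the LTR12 repeats that flank them belong to one family of human endogenous retroviruses of class ERV1. Their RNA was followed in PAR-CLIP libraries pulled down through a V5 tag from A375, an established human melanoma cell line. The members were the annotated elements whose subfamily name begins with HERV9, or is LTR12 alone or LTR12 with a letter or the sign _ after it, with reads on the strand of the element. They numbered 4621 of 1509971 elements of 6 repeat classes with such reads in any of the 12 libraries, over 3 internal and 7 LTR12 subfamilies. The family was taken up because HERV9-int was much lower in Z18fl than in Clover and HERV9N-int much higher in Z18trunc than in Z18fl. These contrasts were selected on the same libraries, so values of members in them are given as a description with no p-value. The other contrasts share Clover or Z18trunc libraries with them, so p-values there are not independent of the choice.

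All cells were A375 cells transfected transiently with a pcDNA3.2 plasmid for a V5-tagged protein, and no label states a deletion of the cells' own ZC3H18. Clover, a fluorescent protein, was the control bait. Z18fl was full-length ZC3H18, Z18trunc was the truncated protein, and Z18truncZnFmut was the truncated protein with some of the aromatic residues of its zinc finger mutated. Labelling with 4-thiouridine began 24 h after transfection, RNA was crosslinked to protein with ultraviolet light, and RNA pulled down with the tag was sequenced after removal of ribosomal RNA. Each bait had 3 libraries, and the labels do not say that these were separate cultures, so a p-value measures the spread between these libraries. No matched input was used here, so less RNA in the cells and less RNA bound to the bait cannot be told apart.

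An intact provirus has an internal part, which holds the viral genes, between 2 long terminal repeats (LTRs) of like sequence. The 5′ LTR carries the promoter and the 3′ LTR the polyadenylation signal of the viral transcript. Recombination between both LTRs of a copy removes the internal part and leaves a solitary LTR. LTR12 repeats are known for promoters with CCAAT and GATA motifs in many human tissues, and some drive transcripts of neighbouring genes. ZC3H18 is a nuclear zinc finger protein that links the cap-binding complex to the RNA exosome, the machine that degrades RNA in the nucleus.

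Motifs were counted in a window of 300 bases, on hg38, that ends 300 bases before the 3′ end of the LTR. CCAAT, GATA and the polyadenylation hexamer AATAAA were each searched on both strands. Of all 3294 LTR12 repeats of at least 600 bases, 96.3% held CCAAT in this window, 76.7% held GATA and 90.1% held AATAAA. The motifs CCAAT and AATAAA can share up to 3 bases where they meet. GATA differed between subfamilies and was found in 94.2% of 2273 LTR12C windows and in 20.6% of 403 LTR12 windows. LTR12_ windows resembled LTR12, with GATA in 22.3% of 215. AATAAA was in 94.9% of LTR12_ windows, 59.3% of 81 LTR12E windows and 0% of 20 LTR12F windows, of which 35% held GATA. A motif match is a description of the letters in this window. Among the LTRs tested in Z18fl against Clover, AATAAA was present in 96.2% of 79 that were lower, 88.1% of 101 not called and 78% of 50 that were higher, and GATA in 77.2%, 84.2% and 76%.

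The libraries held 16683132 to 25686948 aligned fragments. One library stood apart, Z18truncZnFmut replicate 3, with reads on 873246 elements against 162206 to 397792 in the other 11. Of the 4621 members, 493 had reads in that library alone, 2171 had reads in any Clover library and 517 in all 12 libraries. Levels are given as CPM, the counts scaled to the aligned fragments of each library. Fold changes come from the quasi-likelihood test of edgeR after TMM scaling, on expected counts over all loci or on counts summed by subfamily. Their standard error (SE) was computed as the absolute log2 fold change over the square root of the F statistic of that test. A call is a Benjamini-Hochberg adjusted p under 0.05 over all loci or subfamilies tested. TMM holds the bulk of loci level. With library sizes from aligned fragments instead, the median log2 fold change of all loci moved from 0.01 to 0.37 in Z18fl against Clover, from -0.03 to 0.31 in Z18trunc against Clover, from -0.05 to 0.15 in Z18truncZnFmut against Clover and from 0.01 to -0.16 in Z18truncZnFmut against Z18trunc. Changes are therefore relative to the bulk of loci, and are marked where the other scaling turned them. The 3 baits were each compared with the same Clover libraries.

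The level of LTR12 repeats differed by their place in the copy. Members of 1 strand with gaps of at most 500 bases were joined into 3905 stretches. An internal part was present in 369 stretches, 139 of which had LTR12 on both sides of it, and 3536 stretches were LTR12 alone. This split was added after the values were seen, so it is given by levels, counts and medians and has no test. The 220 LTR12 repeats 3′ of an internal part, the end at which the proviral transcript stops, had a summed level of 242, 250 and 233 CPM in the Clover libraries and 91.2, 94.1 and 88.8 CPM in Z18fl. They stood at 172, 163 and 158 CPM in Z18trunc and at 227, 208 and 180 CPM in Z18truncZnFmut. The libraries of no bait overlapped with those of another, and the means of the 3 ZC3H18 baits were 0.378, 0.680 and 0.848 of the Clover mean. The 218 LTR12 repeats 5′ of an internal part, the promoter end, stood at 89.7, 73.3 and 96.7 CPM in Clover and 46.0, 49.9 and 47.4 CPM in Z18fl. The Z18trunc libraries at 75.6, 78.2 and 63.3 CPM and the Z18truncZnFmut libraries at 79.2, 83.9 and 82.1 CPM overlapped with Clover.

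The 457 internal parts beside an LTR12 had 187 ± 6.09 CPM in Clover and 124 ± 6.41 CPM with Z18fl as the bait (SD, n = 3). Their level with Z18trunc was 161 ± 9.89 CPM, and Z18truncZnFmut stood at 188 ± 14.2 CPM (SD, n = 3). Only the Z18truncZnFmut libraries overlapped with Clover in this group. The 3631 LTR12 repeats with no internal part in their stretch stood higher in CPM with the ZC3H18 baits. They had 362, 330 and 370 CPM in Clover, against 513, 521 and 539 CPM for Z18fl, 526, 520 and 515 CPM for Z18trunc, and 531, 485 and 595 CPM for Z18truncZnFmut. All 9 libraries of the ZC3H18 baits were above the 3 Clover libraries there, with means 1.48, 1.47 and 1.52 of the Clover mean. The bulk of loci shifted the same way at this scaling, with median log2 fold changes over all loci of 0.37, 0.31 and 0.15. Those of the tested LTRs with no internal part were 0.49, 0.36 and 0.37, so a rise at this scaling was not confined to these LTRs. Their median was the larger in each bait, and that difference was not tested. The 94 internal parts with no LTR12 nearby carried little signal, 1.23 ± 0.0772 CPM in Clover (SD, n = 3), and 1 LTR12 lay between internal parts. Per length, the 3′ LTRs were the most densely read in Clover at 1.29 CPM per kb, followed by 5′ LTRs at 0.478, internal parts at 0.141 and LTRs with no internal part at 0.0861.

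**Figure D1:**
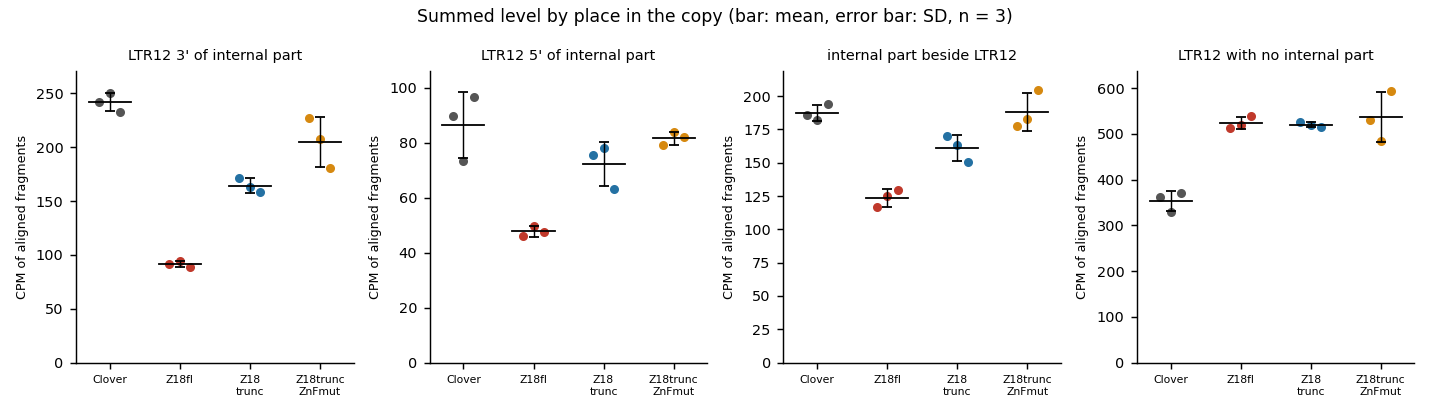
Summed level (CPM of aligned fragments) of LTR12 repeats 3′ of an internal part, 5′ of an internal part, of internal parts beside LTR12 and of LTR12 with no internal part, by bait. Points are libraries, the bar is the mean and the error bar the SD (n = 3); Z18fl libraries lie lowest in the first 3 panels, while in the last all ZC3H18 bait libraries lie above Clover.

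Locus by locus, 289 of the 4621 members had enough reads for the test in Z18fl against Clover. Of these, 55 were called higher and 116 lower, beside 28.3% of all 12098 loci tested called higher and 24.6% lower, with a median log2 fold change of -0.42 over the members and 0.01 over all loci. As this contrast chose the family, its counts here and by place describe the members and are no test of them. Scaled to aligned fragments the split was 70 higher and 84 lower. Among the 3′ LTRs 35 of 39 were lower and 1 higher, with a median of -1.87 (-1.52 scaled to aligned fragments). Among the 5′ LTRs 20 of 26 were lower and 2 higher (median -1.47), and among internal parts 33 of 49 were lower and 3 higher (median -1.30). Of 175 LTRs with no internal part, 49 (28%) were higher and 28 (16%) lower (median 0.13). Scaled to aligned fragments 64 were higher and 11 lower, beside 35.9% and 14.7% of all loci. Uniquely mapping reads alone gave 32 lower 3′ LTRs.

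The same order was seen in Z18trunc against Clover. This contrast shares libraries with those that chose the family, so it is no independent support. Of 304 members tested, 22 rose and 68 fell, beside 22.5% of 13204 loci that rose and 13.4% that fell. Without Z18trunc replicate 1, 42 fell. Scaled to aligned fragments, 38 rose (12.5%) and 29 fell (9.54%), and the median over the members turned from -0.27 to 0.08. Beside them 28.03% of all loci rose and 3.82% fell at that scaling. Of the 3′ LTRs 25 of 43 fell and 0 rose (median -0.97). Of the 5′ LTRs 9 of 33 fell and of the internal parts 19 of 53, with medians of -0.63 and -0.58, and 0 of either rose. Scaled to aligned fragments 5 of the 5′ LTRs and 6 of the internal parts fell, and 0 and 2 rose. Of the LTRs with no internal part 22 rose and 15 fell of 175 (median 0.01). Scaled to aligned fragments 35 rose and 1 fell (median 0.36). At either scaling the share of them that rose was under that of all loci, 22.5% after TMM and 28.03% scaled to aligned fragments. The number of 3′ LTRs that fell was 17 scaled to aligned fragments, and 3 with no filter on low counts.

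In Z18truncZnFmut against Clover 14 of 272 members tested rose (5.15%) and 12 fell (4.41%), beside 12.3% and 4.83% of 10152 loci. The members thus fell about as often as all loci and rose less often, so the split by place below is a description only. With 1 library left out in turn 5 to 10 fell. Scaled to aligned fragments 18 rose (6.62%) and 0 fell by edgeR (11 fell at an unadjusted p under 0.05). Beside them 14.7% of all loci rose and 1.14% fell at that scaling. The 3′ LTRs held 8 of the 12 that fell, of 45 tested (median -0.38), the 5′ LTRs 1 of 27 and internal parts 3 of 49. All 14 that rose were LTRs with no internal part, 9.27% of 151 tested (median 0.18), which is under the 12.3% of all loci.

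**Figure D2:**
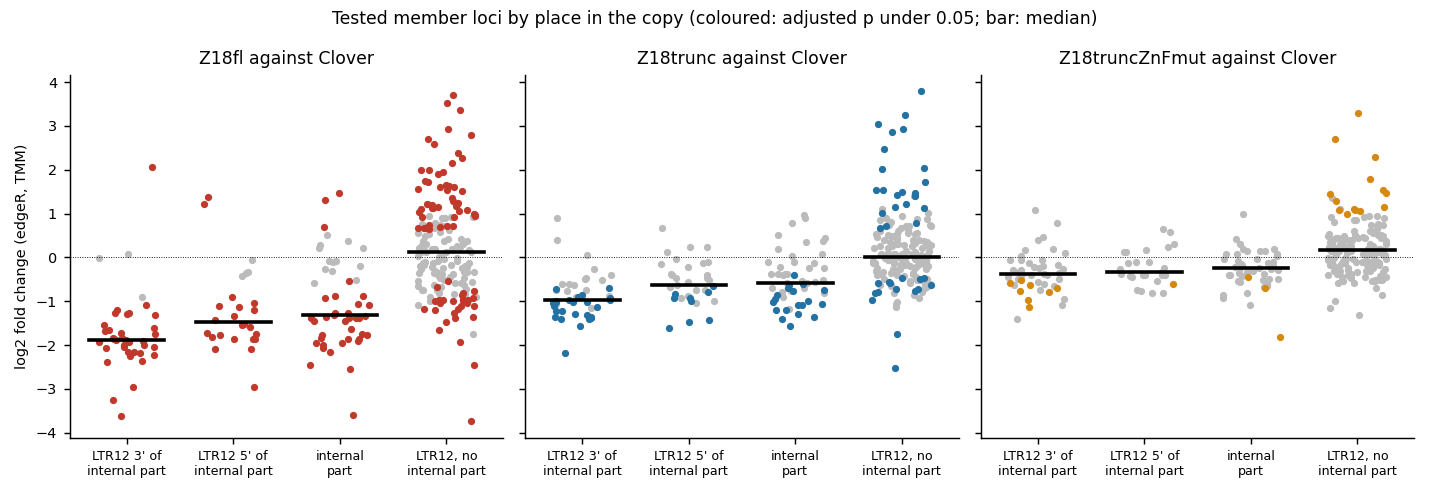
Log2 fold change (edgeR, TMM) of each tested member against Clover, in 3 panels for the 3 ZC3H18 baits, by place in the copy. Coloured points have an adjusted p under 0.05, grey points do not, and the bar is the median; 3′ LTRs lie lowest, at medians of -1.87, -0.97 and -0.38, and LTRs with no internal part lie around 0.

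The counts by place in Z18fl against Clover were also split by position relative to genes, as a description and no test. Of the 4621 members 94 lay in exons, 870 in introns, 1063 antisense to a gene and 2594 between genes. Between genes, 19 of 22 3′ LTRs were lower, against 10 of 69 LTRs with no internal part and 26.3% of 410 other LTR elements. Antisense to genes, 10 of 11 3′ LTRs and 7 of 16 LTRs with no internal part were lower, beside 32.3% of 158 other LTR elements. In introns, 29 of 77 LTRs with no internal part were higher and 8 lower (median 0.55), and 2 3′ LTRs were tested, both lower. Intronic reads on the strand of the host gene can be host pre-mRNA, and their part in these values was not tested. Other LTR elements in introns were also more often higher than lower, 206 against 74 of 575 (median 0.48).

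The 4 copies that hold 7 of the 8 loci of highest level showed the levels along single proviruses. The copy on chromosome 1 near KCNN3, which codes for a calcium-activated potassium channel, spans chr1:154670568-154679312 on the plus strand. In Clover its 5′ LTR12C had 6.85 CPM per kb, the long HERV9NC-int piece 4.11, a short HERV9NC-int piece of 610 bases 13.5 and the 3′ LTR12C 33.1 CPM per kb. In Z18fl the same pieces had 3.07, 1.94, 4.77 and 10.6 CPM per kb, which is 0.449, 0.473, 0.353 and 0.320 of Clover. The copy on chromosome 11 (chr11:67618853-67627042), beside NUDT8 and NDUFV1 also had its highest level in the 3′ LTR. Its 5′ LTR12C had 13.2 CPM per kb in Clover and 5.88 in Z18fl, the long HERV9NC-int piece 5.25 and 3.22, and the 648-base piece of the 3′ LTR12C 48.7 and 17.0.

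The copy on chromosome 19 (chr19:8379161-8387101) has LTR12D at both ends. Its 5′ LTR12D had 8.99 CPM per kb in Clover and 3.26 in Z18fl, and its 3′ LTR12D 33.7 and 10.9. The long HERV9NC-int piece between them was read at 0.991 and 0.488 CPM per kb. In the copy over WARS2-AS1 (chr1:119171364-119180391), a long noncoding RNA, the ends parted. Its 5′ LTR12C had 2.31 CPM per kb in Clover and 2.84 in Z18fl and its HERV9NC-int 1.23 and 1.39, whereas its 3′ LTR12C, an annotated exon, had 11.1 and 5.93. Both LTRs of a copy are alike in sequence, so reads that map to both were split by the authors' expectation maximization.

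**Figure D3:**
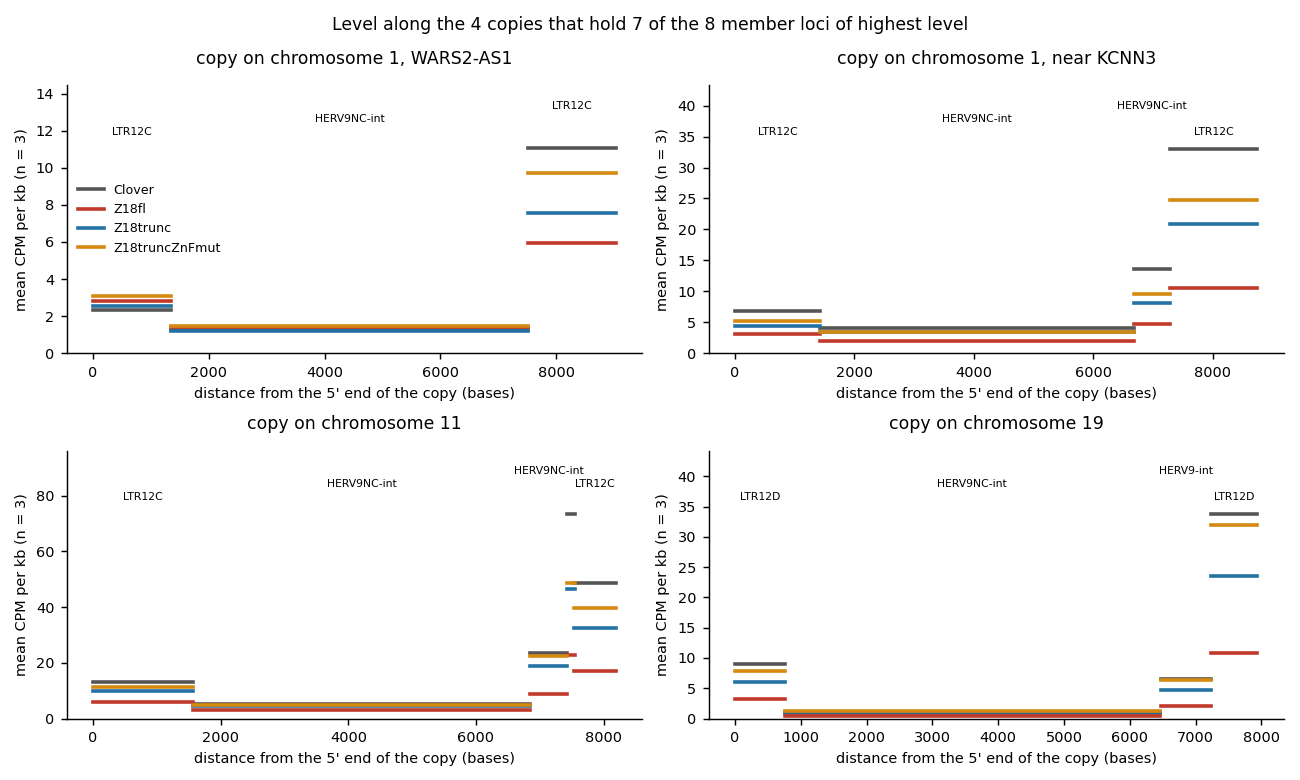
Mean level per length (CPM per kb, n = 3) of each annotated piece along the 4 copies that hold 7 of the 8 loci of highest level, against the distance in bases from the 5′ end of the copy, with 1 colour per bait. The 3′ LTR is the highest or next to highest piece of each copy, and Z18fl is the lowest line there, at 5.93 to 17.0 CPM per kb in the long 3′ LTR pieces.

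Few loci carried much of the signal. The 8 members of highest mean level held 17.1% of the members' mean CPM, and the first 100 held 56.8%. LTR12C at chr1:154677855-154679312, the 3′ LTR of the KCNN3 copy, led with 3.62%. It had 48.0, 52.0 and 44.6 CPM in Clover and 16.3, 16.1 and 13.9 in Z18fl, with no overlap (log2 fold change -2.004, SE 0.13). In Z18trunc it had 30.3, 30.0 and 31.2 CPM and fell against Clover (log2 fold change -1.01, SE 0.11, edgeR adjusted p = 1.64e-06). In Z18truncZnFmut it had 39.8, 36.5 and 31.6 CPM, below every Clover library, and fell as well (log2 fold change -0.63, SE 0.15, edgeR adjusted p = 0.00319, and 0.0808 scaled to aligned fragments). Of its reads in Clover 65.8% mapped uniquely.

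The next by level were parts of the other copies above. LTR12C at chr11:67626395-67627042 had 32.4, 31.9 and 30.4 CPM in Clover. The Z18fl libraries had 10.98, 11.3 and 10.7 CPM, those of Z18trunc 21.4, 22.5 and 19.3 CPM, and those of Z18truncZnFmut 30.2, 26.6 and 19.999 CPM. It fell in Z18trunc against Clover (log2 fold change -0.93, SE 0.11, edgeR adjusted p = 3.79e-06) and in Z18truncZnFmut (-0.51, SE 0.15, edgeR adjusted p = 0.0224, and 0.293 scaled to aligned fragments). LTR12D at chr19:8386396-8387101, antisense to RAB11B-AS1, had 23.6, 24.7 and 23.1 CPM in Clover, 7.04, 8.75 and 7.24 in Z18fl and 17.5, 16.1 and 16.3 in Z18trunc. It fell in Z18trunc (log2 fold change -0.87, SE 0.12, edgeR adjusted p = 1.54e-05). At 24.7, 23.0 and 19.9 CPM in Z18truncZnFmut it overlapped with Clover, and it was 1 of 2 members called between Z18truncZnFmut and Z18trunc (log2 fold change 0.61, SE 0.15, edgeR adjusted p = 0.0472, and 0.223 scaled to aligned fragments).

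The long HERV9NC-int pieces of the 4 copies, which hold viral genes, stood in Z18fl at 0.473 to 1.13 of Clover, against 0.320 to 0.536 for the long 3′ LTR pieces. The short HERV9-int piece of the chromosome 19 copy, at 0.305 of Clover, lay below its 3′ LTR12D at 0.322. HERV9NC-int at chr11:67620426-67625693 had 28.8, 28.9 and 25.2 CPM in Clover, 15.8, 16.5 and 18.6 in Z18fl and 24.5, 22.5 and 22.4 in Z18trunc (log2 fold change -0.60, SE 0.12, edgeR adjusted p = 0.000463, and 0.136 scaled to aligned fragments). HERV9NC-int at chr1:154672000-154677247, in an intron of a long noncoding RNA, had 21.4, 22.0 and 21.3 CPM in Clover and 9.62, 10.6 and 10.4 in Z18fl. Of its reads 26.9% mapped uniquely in Clover and 46.4% in Z18fl. Whether the difference between pieces of a copy exceeds the error was not tested.

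LTR12C at chr13:64076779-64078059 was the exception among the 8. It lies between genes with no internal part beside it. It had 97, 58 and 89 counts in the Clover libraries, which is 5.81, 3.39 and 5.04 CPM, and 20.03, 18.6 and 19.2 CPM in Z18fl. Z18trunc libraries had 13.8, 13.8 and 14.6 CPM and Z18truncZnFmut libraries 11.96, 12.5 and 10.4, all above Clover. It rose against Clover in Z18trunc (log2 fold change 1.23, SE 0.17, edgeR adjusted p = 1.23e-05) and in Z18truncZnFmut (1.10, SE 0.19, edgeR adjusted p = 0.000184). About the same share of its reads mapped uniquely in each bait, 73.1% to 76.6%.

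**Figure D4:**
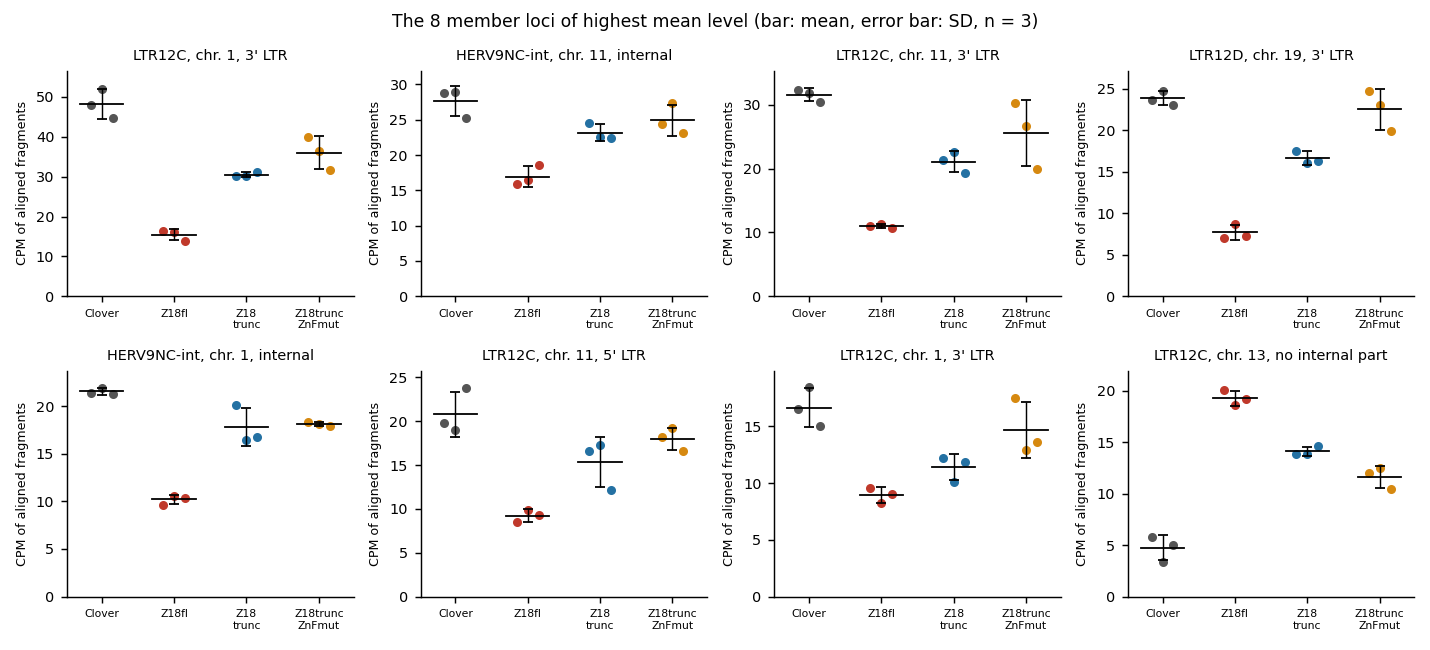
Level (CPM of aligned fragments) of the 8 members of highest mean level in each library, by bait; points are libraries, the bar is the mean and the error bar the SD (n = 3). Z18fl is lowest in the 7 loci that belong to copies with an internal part, and the LTR12C on chromosome 13 is lowest in Clover, at 3.39 to 5.81 CPM.

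Of the called members with a mean of at least 20 counts, the 2 with the largest rises against Clover in each bait were also LTRs with no internal part. LTR12_ at chr6:37962487-37963192 lies in an intron of ZFAND3. It had 4, 0 and 4 counts in Clover and 56, 84 and 63 in Z18trunc (log2 fold change 3.796, SE 0.46), and its 0.155 ± 0.135 CPM in Clover stood against 2.70 ± 0.135 in Z18fl (SD, n = 3). LTR12 at chr14:28842415-28843286, in an exon of the noncoding LINC02327, had 3, 1 and 4 counts in Clover and 51, 49 and 39 in Z18trunc (log2 fold change 3.25, SE 0.44). LTR12C at chr6:28865488-28867004, between genes with TRIM27 the nearest coding gene, had 5, 3 and 1 counts in Clover. In Z18truncZnFmut it was higher by 2.70 on the log2 scale (SE 0.53). With so few Clover reads the size of these folds is uncertain, as the SE shows. These loci passed the filter on low counts only through the bait libraries and were picked as the largest rises. No p-value is therefore given for them.

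Of the called members with a mean of at least 20 counts, the 2 with the largest falls against Clover in each bait belonged to copies with an internal part. LTR12C at chr4:76049792-76051220, a 5′ LTR antisense to ART3, had 1.44, 1.75 and 1.81 CPM in Clover and 0.394, 1.08 and 0.650 in Z18trunc (log2 fold change -1.60, SE 0.36). HERV9-int at chr3:140877582-140878369 had 3.09, 4.09 and 5.33 CPM in Clover and 1.71, 1.34 and 2.27 in Z18trunc (log2 fold change -1.57, SE 0.26). In Z18truncZnFmut they were 3′ LTRs. LTR12 at chr11:85613466-85614182, antisense to DLG2, had 1.38, 1.23 and 1.13 CPM in Clover and 0.579, 0.769 and 0.609 in Z18truncZnFmut (log2 fold change -1.13, SE 0.38). Scaled to aligned fragments this locus was not called. LTR12C at chr11:42881201-42882920 had 4.19, 5.15 and 3.72 CPM in Clover and 3.96, 2.11 and 1.69 in Z18truncZnFmut, of which the first overlapped with Clover. It fell by 0.97 on the log2 scale (SE 0.25) and was not called scaled to aligned fragments. The falls named here were picked as the largest, so no p-value is given for them. In Z18fl, LTR12D at chr14:31711544-31712689, a 5′ LTR antisense to NUBPL, had 0.221 ± 0.0493 CPM against 1.38 ± 0.180 in Clover (SD, n = 3), and an LTR12 3′ LTR on chromosome 8 had 0.286 ± 0.158 against 1.79 ± 0.388.

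By subfamily, the 3 internal groups, LTR12 and LTR12D were lower in Z18fl than in Clover, while LTR12_, LTR12E and LTR12B were higher in CPM. HERV9-int had 40.3, 39.8 and 42.9 CPM in Clover, 20.1, 24.5 and 25.0 in Z18fl and 33.4, 32.6 and 31.2 in Z18trunc, none of which overlapped. In Z18truncZnFmut it had 37.8, 40.0 and 52.1 CPM. HERV9NC-int had 135 ± 3.64 CPM in Clover against 93.6 ± 2.91 CPM for Z18fl, 118 ± 8.47 CPM for Z18trunc and 133 ± 6.02 CPM for Z18truncZnFmut (SD, n = 3). HERV9N-int, the least abundant of the internal subfamilies, had 12.7 ± 0.907 CPM in Clover and 7.85 ± 0.691 CPM for Z18fl, while Z18trunc had 12.5 ± 0.381 CPM and Z18truncZnFmut 14.7 ± 4.07 CPM (SD, n = 3). In Z18fl against Clover the log2 fold changes of HERV9-int, HERV9N-int and HERV9NC-int were -1.30 (SE 0.10), -1.17 (SE 0.12) and -1.001 (SE 0.07). Beside them 20.1% of 914 subfamilies were called lower and 20.1% higher.

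LTR12C, the most abundant with 63.2% of the members' counts, overlapped in CPM between Clover, at 529 ± 17.2, and Z18fl, at 523 ± 9.00 (SD, n = 3). Its log2 fold change in Z18fl was -0.49 (SE 0.06) after TMM and -0.015 scaled to aligned fragments. It had 582 ± 14.9 in Z18trunc and 629 ± 30.9 in Z18truncZnFmut, both above all Clover libraries in CPM, while after TMM its log2 fold changes against Clover were -0.32 and -0.46. LTR12 had 56.9, 49.1 and 54.9 CPM in Clover and 36.5, 41.8 and 42.6 in Z18fl, and LTR12D had 65.3, 61.5 and 66.5 against 46.6, 49.2 and 47.1. LTR12_ and LTR12E were higher in CPM in every library of the ZC3H18 baits than in Clover, while after TMM the log2 fold change was 0.05 to 0.31 for LTR12_ and turned to -0.25 in Z18truncZnFmut for LTR12E. LTR12_ had 13.9 ± 0.551 CPM in Clover and 21.8 ± 0.803, 23.7 ± 0.851 and 25.0 ± 5.50 in the others, and LTR12E had 13.2 ± 0.119 CPM in Clover and 19.7 ± 2.04, 19.0 ± 1.15 and 18.5 ± 0.885 in the others (SD, n = 3). The small LTR12B had 2.02 ± 0.260 CPM in Clover and was above all Clover libraries in each ZC3H18 bait, at 1.47, 1.51 and 1.75 of the Clover mean (SD, n = 3), while its log2 fold change after TMM was 0.086, 0.12 and -0.0022. LTR12F, at 6.52 ± 1.24 CPM in Clover (SD, n = 3), was above all Clover libraries in Z18trunc at 1.35 of the Clover mean and overlapped in the other baits, and after TMM its log2 fold change was -0.033 in Z18trunc.

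**Figure D5:**
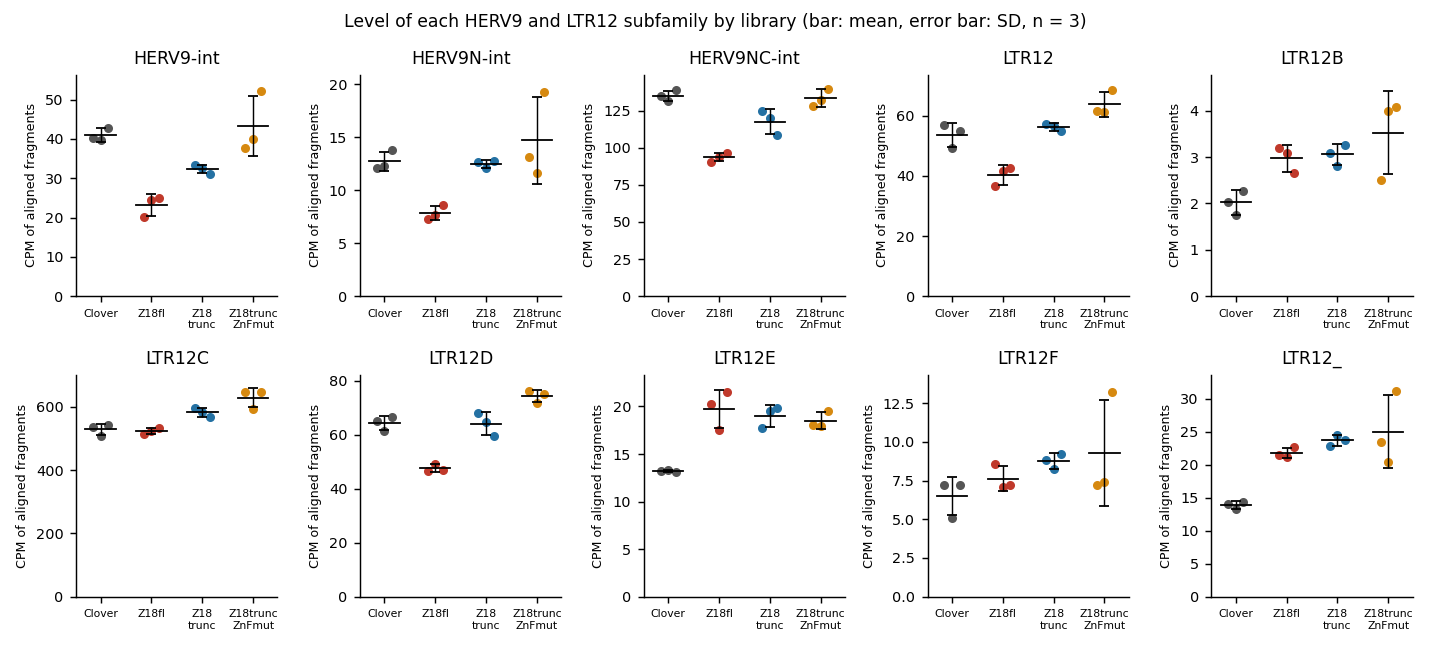
Level (CPM of aligned fragments) of the 10 subfamilies in each library, by bait; points are libraries, the bar is the mean and the error bar the SD (n = 3). The 3 internal subfamilies, LTR12 and LTR12D are lowest in Z18fl, and LTR12_, LTR12E and LTR12B are lowest in Clover.

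The p-values of Z18trunc against Clover by subfamily sums are not independent of the choice of the family, which used the same Clover libraries. In this contrast HERV9-int (log2 fold change -0.80, SE 0.11, edgeR adjusted p = 2.6e-05) and HERV9NC-int (-0.65, SE 0.12, edgeR adjusted p = 0.000402) fell. HERV9N-int (-0.49, edgeR adjusted p = 0.00839), LTR12D (-0.46, edgeR adjusted p = 0.00622), LTR12 (-0.39, edgeR adjusted p = 0.0102) and LTR12C (-0.32, edgeR adjusted p = 0.0425) fell too, beside 11% of 924 subfamilies that fell and 15.7% that rose. Without Clover replicate 3, HERV9-int and HERV9NC-int alone fell. Scaled to aligned fragments, HERV9-int alone of these fell (-0.34, edgeR adjusted p = 0.0127), LTR12 and LTR12C turned to 0.068 and 0.14, and LTR12_ (0.77, edgeR adjusted p = 3.3e-05) and LTR12E (0.53, edgeR adjusted p = 0.00268) rose. In Z18truncZnFmut against Clover 0 of the 10 subfamilies passed the edgeR test and 0 that of DESeq2, beside 1.3% of 920 that rose and 0% that fell, and the 3 internal subfamilies alone had an unadjusted p under 0.05. Without replicate 3 of Z18truncZnFmut, HERV9-int (-0.42, edgeR adjusted p = 0.00118) and HERV9NC-int (-0.39, edgeR adjusted p = 0.000501) fell. The share of all subfamilies called in that fit was not set beside these. With replicate 3 kept and scaled to aligned fragments, HERV9-int and HERV9NC-int stood at 0.080 and -0.018.

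Between Z18trunc and Z18fl, 33 of 377 members were called higher and 10 lower, beside 2.62% of 19413 loci higher and 3.13% lower (34 and 5 scaled to aligned fragments, and 15 to 29 and 3 to 11 with 1 library left out in turn). This contrast also chose the family, so these counts are a description and no test. The 3′ LTRs gave 14 higher of 40 and 1 lower (median 0.82), 5′ LTRs 5 of 35 and 0 lower (0.65), internal parts 11 of 55 and 3 lower (0.52), and LTRs with no internal part 3 of 247 and 6 lower (-0.19). By sums, HERV9N-int was higher in Z18trunc by 0.62 (SE 0.11), LTR12 by 0.44 (SE 0.09) and HERV9-int by 0.44 (SE 0.11) on the log2 scale, and 0 to 6 subfamilies were called higher with 1 library left out, beside 1.48% of 947 subfamilies higher and 2.22% lower. Single loci ranged from LTR12D at chr14:31711544, with 5, 4 and 7 counts in Z18fl and 32.7, 23.9 and 22.3 in Z18trunc, to HERV9NC-int at chr13:100282631-100285957, in an intron of PCCA, with 1.12 ± 0.218 CPM in Z18fl and 0.331 ± 0.0361 in Z18trunc (SD, n = 3). LTR12 at chr7:154677877-154678665, in an intron of DPP6, had 2, 14 and 9 counts in Z18fl and 31, 31 and 26 in Z18trunc. Clover had 5, 2 and 10 counts there (log2 fold change of Z18trunc against Clover 1.53, SE 0.46). The locus was picked for its Z18trunc counts, so no p-value is given. HERV9NC-int at chr9:22440448-22440855, near DMRTA1, was lower, with 0.292 ± 0.217 CPM in Z18trunc and 0.883 ± 0.247 in Z18fl (SD, n = 3).

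Between Z18truncZnFmut and Z18trunc, 2 of 364 members rose and 0 fell by edgeR (57 higher and 10 lower at an unadjusted p under 0.05, and 14 and 0 by DESeq2), beside 0.368% and 0.351% of 16833 loci, and 0 of either scaled to aligned fragments. Besides the LTR12D on chromosome 19, a HERV9-int piece on chromosome 8 rose by 1.13 on the log2 scale (SE 0.24, edgeR adjusted p = 0.0292, and 0.0633 scaled to aligned fragments). It had 1.89, 1.28 and 1.35 CPM in Z18trunc and 3.19, 2.68 and 2.93 in Z18truncZnFmut, with no overlap. By edgeR and by DESeq2 0 of the 10 subfamilies passed, beside 0% of 956 in either direction, and none of the 10 had an unadjusted edgeR p under 0.05. The SE of the 10 log2 fold changes was 0.19 to 0.34 there.

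Other ERV1 families were set beside the members as a description, since the family was chosen on these values. HERVH internal parts with their LTR7 were also mostly lower in Z18fl against Clover, 53 of 109 tested with 8 higher (median -0.73, and -0.37 scaled to aligned fragments), and 38 of 125 fell in Z18trunc with 1 that rose (13 and 6 scaled to aligned fragments). HERVE with LTR2 had 8 higher and 5 lower of 19 in Z18fl (median 0.07). All other ERV1 elements had 109 higher and 102 lower of 449 (median 0.02). In Z18truncZnFmut against Z18trunc, 14 of 134 HERVH/LTR7 loci rose and 0 fell, and scaled to aligned fragments 3 rose. The 10 member subfamilies also differ from one another in base content. Internal parts have a median AT content of 53.4% to 53.8%, LTR12C 41.9% and LTR12E 40.2%. Across tested members the AT content and the log2 fold change against Clover had a Spearman rho of -0.36 in Z18fl (n = 289 loci), -0.34 in Z18trunc (n = 304) and -0.27 in Z18truncZnFmut (n = 272), and across other LTR loci -0.06, -0.08 and -0.11. Loci share libraries and sequence families, so these values are descriptions across loci.

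Reads in these repeats map to many copies. In Clover 52.9 ± 1.21% of the internal counts were uniquely mapping, against 66.9 ± 1.60% for Z18fl, 59.1 ± 1.30% for Z18trunc and 56.6 ± 1.62% for Z18truncZnFmut (SD, n = 3). The share was highest in Z18fl, where the summed level of internal parts was lowest. In Z18truncZnFmut it was above that of Clover, although the mean level of 191 CPM was near the 189 CPM of Clover. The log2 ratio of Z18fl to Clover for internal parts was -0.60 with all reads and -0.26 with uniquely mapping reads alone. For LTR12 the share was steadier, at 68.6% in Clover and 71.9% in Z18fl. All members together made up 2.21% of the element counts in Clover and 1.52%, 1.62% and 1.65% in Z18fl, Z18trunc and Z18truncZnFmut.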

How the data were processed

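PAR-CLIP libraries of 4 baits in A375 cells were grouped by sample title, 3 libraries each. Per the submitters' processing notes reads were trimmed with cutadapt 4.6, and the authors ran SQuIRE against hg38, which counts reads per repeat element and strand, 1 file per library. The deposited totals are expected counts, as multimapping reads are shared out by expectation maximization. The deposited unique reads and aligned fragments are counts, and the deposited score is the percent of reads aligned to an element that were assigned to it. The deposited FPKM values, which the authors' SQuIRE run computed per element, were not used. Expected counts on the element's strand were rounded and tested with edgeR 4.0.16 (R 4.3.3; TMM; filterByExpr at 10 and 15 counts; the 6 libraries compared). DESeq2 1.42.0 was an alternative. The code was tested on simulated data. CPM were computed over aligned fragments. Gene context came from GENCODE release 44 and sequence from hg38: exon for at least 50% of the length in exons, otherwise intron, antisense or intergenic. Members and lists were chosen with earlier results of these data known. Loci named are the 8 of highest mean CPM and, per comparison and direction, up to 2 of the largest change among called loci with a mean of at least 20 counts. Alternatives tried were another tool, scaling, filter, strand, unique reads, a single fit, a replicate block and leaving out each library. Depth was 16683132 to 25686948 aligned fragments. The sequences of single LTRs are not reported here.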

Additional observations from a re-analysis of the deposited data

Results flagged for a closer look

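Reads on the strand opposite to the members lie outside the comparisons of the report. Their summed level was 153 CPM in the mean of the Clover libraries and 246 CPM in Z18fl, 215 CPM in Z18trunc and 266 CPM in Z18truncZnFmut, so it was above the control in each ZC3H18 bait. The libraries spanned 140 to 161 CPM in Clover, 235 to 258 in Z18fl and 201 to 238 in Z18trunc. In Z18truncZnFmut they were 215, 217 and 366 CPM, the last in the library that stands apart. Antisense reads made up 14.995% of all reads on members in Clover and 23.8%, 19.0% and 20.5% in Z18fl, Z18trunc and Z18truncZnFmut. Over all elements this share was 39.5% in Clover and 38.3%, 37.4% and 40.0% in the other baits. The share also depends on the sense reads on members, which were 871 CPM in Clover and 788, 920 and 1015 CPM in the other baits. The CPM of antisense reads over all elements was not set beside these values.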

How the results depend on the processing

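Values under another setting are given where a count moved by over 1.5 times, a summed ratio by over 1 SD, or a direction turned, and the cause was not tested. With reads on either strand, Z18fl against Clover gave 93 loci higher, 2 subfamilies higher and summed log2 ratios of -0.43 for internal parts and 0.11 for all LTR12, Z18trunc against Clover gave 1 subfamily higher and a summed log2 ratio of 0.21 for all LTR12, Z18truncZnFmut against Clover gave 6 loci lower, a summed log2 ratio of 0.36 for all LTR12 and a log2 fold change of 0.18 for LTR12B, and Z18truncZnFmut against Z18trunc gave 1 locus higher and a log2 fold change of 0.00018 for HERV9NC-int. With no filter on low counts, Z18fl against Clover gave 70 loci lower, Z18trunc against Clover gave 6 loci lower, Z18truncZnFmut against Clover gave 1 locus lower, Z18trunc against Z18fl gave 14 loci higher and 4 loci lower, and Z18truncZnFmut against Z18trunc gave 0 loci higher and log2 fold changes of 0.015 for HERV9NC-int and 0.010 for LTR12. Scaled to aligned fragments, Z18fl against Clover gave 3 subfamilies higher and a log2 fold change of 0.23 for LTR12F, Z18trunc against Clover gave 38 loci higher and 29 loci lower, 2 subfamilies higher and 1 subfamily lower and log2 fold changes of 0.068 for LTR12, 0.14 for LTR12C and 0.43 for LTR12F, Z18truncZnFmut against Clover gave 0 loci lower and log2 fold changes of 0.080 for HERV9-int, 0.21 for HERV9N-int, 0.25 for LTR12, 0.80 for LTR12B, 0.25 for LTR12C, 0.21 for LTR12D, 0.49 for LTR12E and 0.52 for LTR12F, Z18trunc against Z18fl gave 5 loci lower and a log2 fold change of 0.033 for LTR12B, and Z18truncZnFmut against Z18trunc gave 0 loci higher and log2 fold changes of 0.23 for HERV9N-int, 0.18 for HERV9NC-int, 0.18 for LTR12, 0.21 for LTR12B, 0.11 for LTR12C, 0.084 for LTR12F and 0.079 for LTR12_. With all 12 libraries in 1 fit, Z18trunc against Clover gave 1 subfamily lower, Z18truncZnFmut against Clover gave 35 loci lower, Z18trunc against Z18fl gave 21 loci higher and 3 loci lower, 0 subfamilies higher and a log2 fold change of 0.014 for LTR12B, and Z18truncZnFmut against Z18trunc gave a log2 fold change of -0.018 for LTR12D. At an unadjusted p under 0.05, Z18truncZnFmut against Clover gave 24 loci higher and 36 loci lower, Z18trunc against Z18fl gave 73 loci higher and 49 loci lower, and Z18truncZnFmut against Z18trunc gave 57 loci higher and 10 loci lower. With uniquely mapping reads only, Z18truncZnFmut against Clover gave 7 loci lower and a log2 fold change of 0.069 for LTR12B, Z18truncZnFmut against Z18trunc gave 12 loci higher and 1 locus lower, Z18fl against Clover gave summed log2 ratios of -0.26 for internal parts and 0.029 for all LTR12, and Z18trunc against Clover gave a summed log2 ratio of -0.058 for internal parts. With the replicate number as a block, Z18truncZnFmut against Clover gave a log2 fold change of -0.013 for LTR12_, Z18trunc against Z18fl gave 6 loci lower and 0 subfamilies higher, and Z18truncZnFmut against Z18trunc gave 0 loci higher and a log2 fold change of -0.089 for LTR12D. With DESeq2, Z18trunc against Z18fl gave 5 loci lower, and Z18truncZnFmut against Z18trunc gave 14 loci higher. Scaled to counts on all 6 element classes, Z18fl against Clover gave summed log2 ratios of -0.99 for internal parts and -0.44 for all LTR12, Z18trunc against Clover gave summed log2 ratios of -0.74 for internal parts and -0.38 for all LTR12, and Z18truncZnFmut against Clover gave summed log2 ratios of -0.65 for internal parts and -0.40 for all LTR12. With 1 library left out in turn, in Z18trunc against Clover the ranges were loci lower 42 to 71, subfamilies higher 0 to 1 and subfamilies lower 2 to 6 and the log2 fold changes were LTR12E -0.030 to 0.12 and LTR12F -0.19 to 0.096. In Z18truncZnFmut against Clover the ranges were loci lower 5 to 10 and subfamilies lower 0 to 2 and the log2 fold changes were LTR12B -0.38 to 0.33, LTR12E -0.49 to 0.11 and LTR12_ -0.20 to 0.33. In Z18trunc against Z18fl the ranges were loci higher 15 to 29, loci lower 3 to 11 and subfamilies higher 0 to 6 and the log2 fold changes were LTR12B -0.13 to 0.045. In Z18truncZnFmut against Z18trunc the ranges were loci higher 0 to 3 and the log2 fold changes were HERV9N-int -0.22 to 0.14, HERV9NC-int -0.18 to 0.28, LTR12 -0.19 to 0.27, LTR12B -0.40 to 0.23, LTR12C -0.29 to 0.23, LTR12D -0.18 to 0.34, LTR12E -0.42 to 0.071 and LTR12_ -0.38 to 0.039. Single libraries that moved such a count by over 1.5 times were Z18trunc replicate 1 for loci lower in Z18trunc against Clover, Clover replicate 3 for subfamilies lower there, and several for each count of 12 or fewer. Leaving out replicate 1 of Z18fl, or replicate 1 or 2 of Z18trunc, did so for loci higher in Z18trunc against Z18fl. Same-numbered libraries did not deviate together, with correlations of -0.08 to 0.04 across loci, so the numbers were not taken to pair the libraries, and the block turned or moved no other value past these limits. A further 248 values of counts and sums stayed within these limits. Low counts left most members untested, with 272 to 377 of 4621 tested in a comparison.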
